A study of Mus musculus with 4 samples.

Results

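Glycolysis and the response to low oxygen were followed here through 37 genes of 29314 represented on the arrays, found by the gene name of the array design. They comprise 2 glucose carriers, 17 glycolytic enzymes from hexokinase to lactate dehydrogenase, 3 PFKFB enzymes, 4 pyruvate dehydrogenase kinases, 4 hypoxia-inducible factor (HIF) subunits and prolyl hydroxylases, and 7 further genes known as hypoxia targets. RNA came from C3H10T1/2 cells, a line of mouse embryo fibroblasts grown in medium with 4.5 g/l of glucose, 10% fetal bovine serum and 5% CO2. Both groups had been transformed in culture with the carcinogen 3-methylcholanthrene (3MC, 2.5 µg/ml over 2 days), and after 4 days in fresh medium with the tumour promoter TPA (100 ng/ml, 2 times per week over 2 weeks) and 4 weeks of recovery. The control group (n = 2 arrays) received nothing further by its label, and the phorone group (n = 2 arrays) received 2 mM phorone, an unsaturated ketone that binds and depletes glutathione. How long the cells were exposed, and in which vehicle, is not given in the sources used here.

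Glycolysis converts glucose to pyruvate and then lactate, and tumour cells often run it even when oxygen is present. When oxygen is low, prolyl hydroxylases stop marking HIF-1α and HIF-2α for destruction, and the stabilised factors switch on glucose carriers, most glycolytic enzymes, the kinases that close the mitochondrial gate for pyruvate, and genes for survival, acidity and collagen folding. HIF binds DNA at a short core, ACGTG or GCGTG, called the hypoxia response element. HIF-1α is controlled mainly through its protein, so its messenger level says little about its activity.

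The start regions of the members are shown first because many of them are known to be regulated through this core. RefSeq (GRCm38.p6) gave windows of 300 bases, from 250 before to 50 after the transcription start, for 34 of the 37 members, all but Epas1, Slc2a3 and Ndrg1. The windows of the glucose carrier Slc2a1 (chr4:119108495-119108794, plus strand), the glycolytic regulator Pfkfb4 (chr9:108991652-108991951, plus strand), the lactate dehydrogenase subunit Ldhb (chr6:142507908-142508207, minus strand), the peptide hormone Adm (chr7:110627407-110627706, plus strand) and the lactate dehydrogenase subunit Ldha (chr7:46845554-46845853, plus strand, the first of its start sites) were chosen because the first 2 genes rose, the next 2 fell and the last did not pass the test. Capitals mark each core on either strand, so that CACGT and CACGC are the core read from the opposite strand, and CACGTG holds it on both.
Slc2a1: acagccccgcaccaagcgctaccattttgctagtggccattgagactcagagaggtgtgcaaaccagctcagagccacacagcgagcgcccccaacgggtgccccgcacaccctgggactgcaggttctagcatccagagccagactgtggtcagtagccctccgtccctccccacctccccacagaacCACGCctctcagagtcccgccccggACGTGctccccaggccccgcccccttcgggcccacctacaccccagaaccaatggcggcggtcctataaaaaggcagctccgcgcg
Pfkfb4: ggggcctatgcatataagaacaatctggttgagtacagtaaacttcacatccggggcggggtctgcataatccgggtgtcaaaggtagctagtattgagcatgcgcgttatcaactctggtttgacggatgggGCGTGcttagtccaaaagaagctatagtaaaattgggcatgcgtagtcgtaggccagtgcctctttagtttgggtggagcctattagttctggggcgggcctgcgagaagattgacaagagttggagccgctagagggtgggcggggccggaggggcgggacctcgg
Ldhb: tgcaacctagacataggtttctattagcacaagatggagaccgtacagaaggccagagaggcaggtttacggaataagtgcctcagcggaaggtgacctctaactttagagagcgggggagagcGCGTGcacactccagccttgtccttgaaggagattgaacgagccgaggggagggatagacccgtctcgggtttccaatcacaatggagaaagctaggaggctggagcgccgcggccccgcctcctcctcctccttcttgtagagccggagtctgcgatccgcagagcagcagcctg
Adm: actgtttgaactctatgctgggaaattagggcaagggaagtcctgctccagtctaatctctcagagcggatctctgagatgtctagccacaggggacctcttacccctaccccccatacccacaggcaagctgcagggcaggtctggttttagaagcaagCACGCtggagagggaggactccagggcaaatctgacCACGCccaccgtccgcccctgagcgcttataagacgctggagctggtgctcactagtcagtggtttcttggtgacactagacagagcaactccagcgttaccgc
Ldha: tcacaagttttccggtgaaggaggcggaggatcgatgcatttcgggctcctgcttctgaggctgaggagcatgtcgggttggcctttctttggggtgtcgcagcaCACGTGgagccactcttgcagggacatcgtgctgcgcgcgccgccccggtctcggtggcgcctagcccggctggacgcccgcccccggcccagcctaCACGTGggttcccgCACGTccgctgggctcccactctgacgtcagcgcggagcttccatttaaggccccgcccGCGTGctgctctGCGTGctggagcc

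A core was found in at least 1 window of 31 of the 34 members (91.2%), against 46.7% of all 27025 genes with a window. The members without one in any window were Gpi1, Tpi1 and Eno2. Of the members' 50 windows 41 held a core, against 43.8% of all 32851 windows. The members' windows were richer in G and C, with a median of 61.2% against 52.7% over all windows. Members also had more windows per gene, 50 for 34 members against 32851 for 27025 genes. The part of either difference in the share was not tested. All 9 of the other hypoxia genes with a window and 14 of the 17 enzymes held a core. So did 3 of 3 members that rose, 8 of 9 that fell and 18 of 20 that were not called. The Ldha window held 7 matches, counting the palindrome CACGTG as 2 overlapping ones, and Ldha did not pass the test. Slc2a1 held 2, at -61 and -36 bases from its start, Adm held 2, at -90 and -54, and Ldhb and Pfkfb4 held 1 each, at -126 and -117. The core of the antioxidant response element, TGACNNNGC on either strand, was looked up after the values had been seen, because phorone binds glutathione. It was found in 4 of the 34 members (11.8%), against 14.0% of all genes with a window. These matches describe letters in a window and are not shown to be bound sites.

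**Figure D1:**
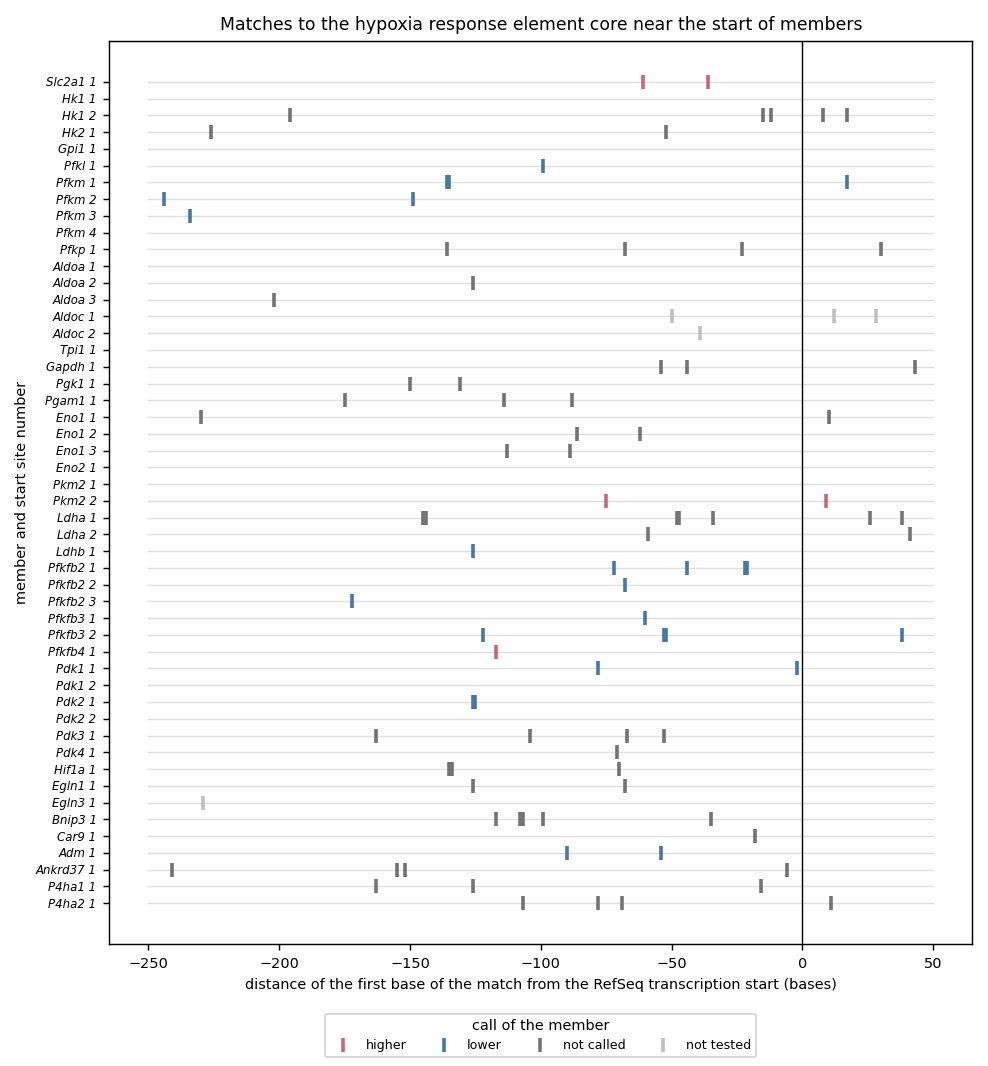
Each line is a window of 300 bases around a RefSeq start site of a member, and each tick is a match to ACGTG or GCGTG on either strand, placed by the distance in bases of its first base from the start. Colours give the member's call, and matches lie in 31 of the 34 members regardless of that call.

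Signals are log2 values relative to the 75th percentile of the array, so that a value of 1 means a signal of 2 times that percentile. This percentile lay between 563 and 747 intensity units, 51.1% to 52.7% of the spots of an array exceeded background clearly, and no spot was saturated. Values of the 17031 genes tested correlated with r = 0.988 between the control arrays, 0.996 between the phorone arrays and 0.939 to 0.951 from group to group, which are correlations over genes and not over independent replicates. Each group filled a row of its own on the slide, and the 2 factors cannot be told apart. Nothing in the labels ties the arrays of a group to separate cultures, so the p-values reflect array-to-array spread that may be technical. Checked against the label, all 8 fibroblast markers were well above background on all 4 arrays, and 5 of them fell and 0 rose (limma, 0 higher also at an unadjusted p below 0.05). Their summed signal, in multiples of the 75th percentile, was 1406 and 1462 in control and 674.5 and 709.9 with phorone. Of 5 endothelial markers, Tek alone was well above background on both control arrays and none was on either phorone array. The immune markers Ptprc, Itgam and Adgre1 and the epithelial markers Cdh1, Krt18, Krt19 and Cldn4 were not well above background on any array. The epithelial marker Krt8 was well above background on all 4 arrays and was not called (0.08). Epcam, also epithelial, was well above background on 1 control array only. The macrophage-associated lysosomal gene Cd68 rose by 1.26, while Cd14 and Cd3e were detected and not called, and the 6 immune markers summed to 3.87 and 4.70 in control and 4.92 and 4.96 with phorone. The muscle markers Des and Acta1 and the adipocyte marker Fabp4 fell, while 4 of 6 muscle and 4 of 5 adipocyte markers were not well above background on any array. The muscle markers summed to 6.21 and 7.25 in control and 1.41 and 1.93 with phorone, and the adipocyte markers to 6.70 and 5.30 and to 3.55 and 4.16. The part of these shifts in the results below was not tested.

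Of the 34 members that passed the filter on dim probes, 3 rose and 10 fell with phorone (limma, Benjamini-Hochberg adjusted p below 0.05), and 21 did not pass. The share called, 38.2%, lay below the 45.5% of all 17031 genes, of which 24.3% rose and 21.3% fell. The median log2 fold change was -0.05 for the members and 0.08 for all genes. Groups did not overlap for 25 of the 34 members, against 77.9% of all genes. A called change of at least 2-fold was found for 6 members, 1 higher and 5 lower, against 20.1% of all genes (8.03% higher and 12.0% lower). Because the arrays measured bulk RNA, fewer cells of a type and less RNA per cell cannot be told apart. Without phorone replicate 2 the members that fell numbered 4, and over all genes 2028 rose and 2340 fell, against 4132 and 3623 with all arrays. Without phorone replicate 1, 2445 genes rose. Scaling on the 7 spike-in probes in place of the 75th percentile raised the fold changes by 0.43 and widened the error, to an SE of 0.45 for every member against 0.12 to 0.34 before. It gave 2886 genes higher and 1208 lower, with 2 members higher and 2 lower. With no filter on dim probes, 29314 genes were tested, 6 members fell, and the calls of Pfkl, Pfkfb2, Pkm2, Pdk1 and Pdk2 were lost. Directions below are therefore relative to the 75th percentile.

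**Figure D2:**
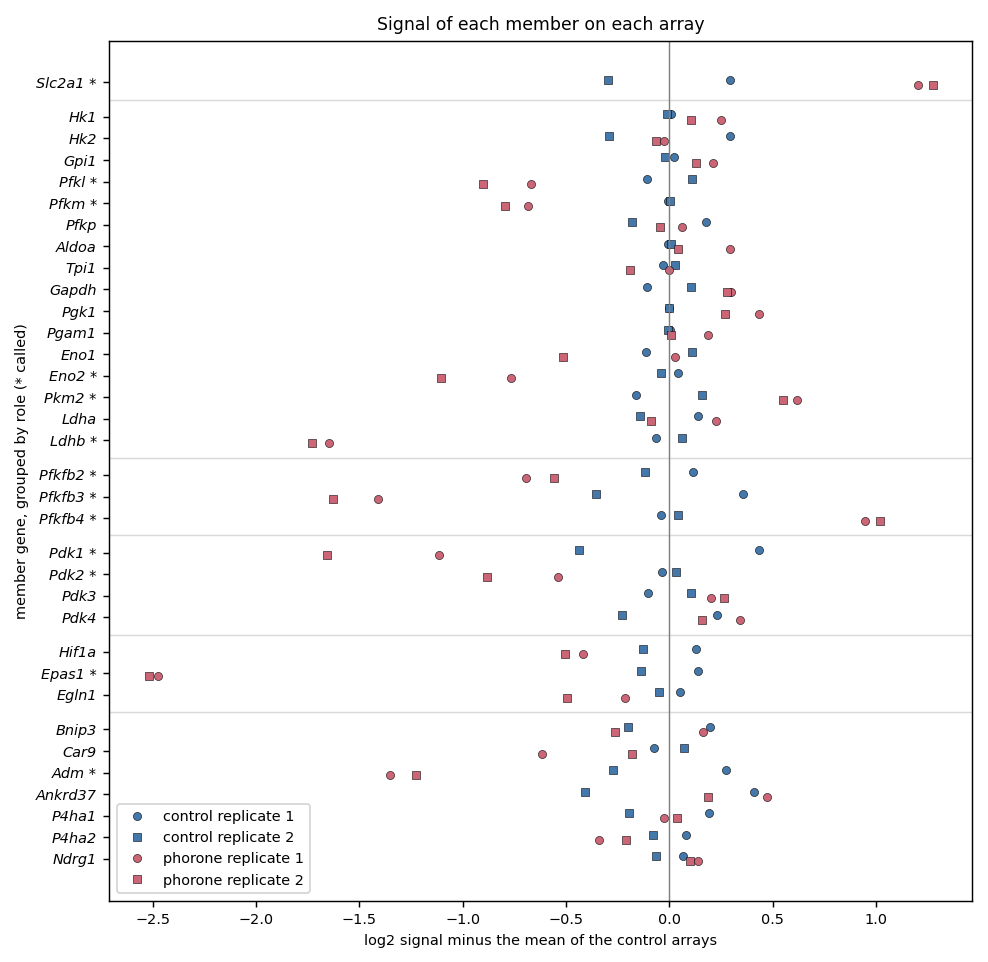
Each row is a member above background, grouped by role, and each point is 1 array, plotted as log2 signal minus the mean of the control arrays (blue, control; red, phorone; circles, replicate 1; squares, replicate 2). Starred members were called, and among them Slc2a1, Pfkfb4 and Pkm2 lie to the right of their control points while 10 others lie to the left.

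Glucose enters most cells through facilitative carriers, of which Slc2a1 (GLUT1) is the widespread basal form. Slc2a1 read 4.21 and 3.62 in control and 5.12 and 5.19 with phorone. Both phorone values lay above both control values, and the control arrays differed from each other more than the phorone arrays did. The log2 fold change was 1.24 (SE 0.22, limma adjusted p = 0.010), a 2.36-fold rise. It was called under each of the 16 alternatives, with values from 0.95 to 1.67. The neuronal carrier Slc2a3 (GLUT3) read -6.92 and -6.98 in control and -6.79 and -6.68 with phorone and was not well above background on any array.

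Most glycolytic enzymes did not pass the test, and neither did most genes (9276 of 17031 not called). Of the 17, 16 passed the filter, 1 of them rose, 4 fell and 11 were not called. The share called was 31.2%, against 45.5% of all genes (24.3% higher and 21.3% lower). The median log2 fold change of the enzymes was 0.04, and they ranged from -1.69 to 0.58. Those that fell were the muscle and liver subunits of phosphofructokinase, neuronal enolase and the B subunit of lactate dehydrogenase. Without phorone replicate 2 only 1 enzyme fell (Ldhb), and 0 rose without control replicate 1, phorone replicate 1 or phorone replicate 2.

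Hexokinases trap glucose as glucose 6-phosphate. Hk1, the housekeeping form, changed by 0.18 (SE 0.13, adjusted p = 0.292) and Hk2, the HIF-inducible form, by -0.04 (SE 0.22, adjusted p = 0.882). Hk1 had 5 probes above background. Of these, the dimmest read -4.22 and -4.04 in control and -4.57 and -4.67 with phorone and was called lower by itself (-0.49, adjusted p = 0.038), though it was well above background on only 1 phorone array. The other 4 ranged from -0.10 to 0.18 and were not called. Gpi1, glucose phosphate isomerase, changed by 0.17 (SE 0.12, adjusted p = 0.292).

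Phosphofructokinase makes the committing step of glycolysis as a tetramer of muscle, liver and platelet subunits. Pfkm, the muscle subunit, read 4.01 and 4.02 in control and 3.33 and 3.22 with phorone. The arrays of each group lay close together and the groups were apart, with a log2 fold change of -0.74 (SE 0.12, adjusted p = 0.008). Pfkl, the liver subunit, read 3.34 and 3.56 in control and 2.78 and 2.55 with phorone, again without overlap (-0.78, SE 0.15, adjusted p = 0.013). Pfkp, the platelet subunit, changed by 0.01 (SE 0.17, adjusted p = 0.972) on its brightest probe, and its other probe gave -0.70 without a call. Both calls were lost without phorone replicate 2, at -0.68 for Pfkm and -0.67 for Pfkl, and under spike-in scaling, at -0.30 and -0.35.

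No enzyme from aldolase to phosphoglycerate mutase was called. Aldoa, the main aldolase of fibroblasts and muscle, changed by 0.17 (SE 0.14), Tpi1 (triose phosphate isomerase) by -0.09 (SE 0.13), Pgk1 (phosphoglycerate kinase, which yields ATP) by 0.35 (SE 0.13, adjusted p = 0.077) and Pgam1 (phosphoglycerate mutase) by 0.10 (SE 0.13). Aldoc, the brain aldolase, read -4.88 and -4.52 in control and -5.77 and -5.31 with phorone. It was well above background on 1 control array only and was not tested.

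Gapdh, which oxidises glyceraldehyde phosphate and is often used as a reference transcript, read 7.70 and 7.91 in control and 8.10 and 8.08 with phorone. Both phorone values were higher than both control values, but the log2 fold change of 0.29 (SE 0.13, adjusted p = 0.136) was not called. The brightest Gapdh probe belongs to a predicted transcript, and its 60 bases are shared by 60 probes of the array under 27 gene names, 3 of them named Gapdh. These 60 probes act as a repeat measurement of one sequence across the slide. Their log2 fold changes ran from 0.20 to 0.44 with a median of 0.34 and an SD of 0.05, and 1 of the 60 was called. The curated Gapdh transcript has a probe of its own, in the coding sequence, shown here because its reading does not rest on the shared stretch.
Gapdh coding probe: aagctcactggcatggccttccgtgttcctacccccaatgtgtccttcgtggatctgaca
This probe read 6.62 and 6.91 in control and 7.19 and 7.09 with phorone, a change of 0.38 (SE 0.15, adjusted p = 0.102 over all probes) that was not called either.

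The last steps held the enzyme that rose and the enzyme that fell most. Enolase makes phosphoenolpyruvate. Eno1, the widespread form, changed by -0.24 (SE 0.22, adjusted p = 0.398), with overlapping groups. Eno2, the neuronal form and a known HIF target, read 0.98 and 0.89 in control and 0.17 and -0.17 with phorone. It fell without overlap, by 0.93 on the log2 scale (SE 0.16, adjusted p = 0.009), and its second probe was also called lower (-0.78). Its call was lost without phorone replicate 2, at -0.77, and under spike-in scaling, at -0.50. Pyruvate kinase is listed under its older array name Pkm2. The value is that of the gene now named Pkm, and the muscle and embryonic splice forms were not separated. It read 4.93 and 5.25 in control and 5.71 and 5.64 with phorone, and rose by 0.58 (SE 0.16, adjusted p = 0.033). This call was among the least steady: it was lost without control replicate 1 (0.43), phorone replicate 1 (0.55) or phorone replicate 2 (0.62), with quantile normalisation (0.47) and with spike-in scaling (1.02).

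Lactate dehydrogenase interconverts pyruvate and lactate as a tetramer of A and B subunits, of which A is a classical HIF and MYC target. Ldhb read 4.03 and 4.15 in control and 2.44 and 2.36 with phorone. The groups lay far apart relative to the spread within each, with a log2 fold change of -1.69 (SE 0.13, adjusted p = 0.001), a 3.22-fold fall that was called under each of the 16 alternatives. Ldha read 6.90 and 6.62 in control and 6.99 and 6.67 with phorone. Its groups overlapped (0.07, SE 0.18, adjusted p = 0.768), and its second probe gave -0.03. Within each array the Ldha to Ldhb ratio, set to 0 at the control mean, was 0.20 and -0.20 in control and 1.87 and 1.64 with phorone, a shift of 1.76 log2 units that no scaling of a whole array can change.

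PFKFB enzymes make and break fructose 2,6-bisphosphate, the strongest activator of phosphofructokinase, and all 3 were called, in both directions. Pfkfb3, whose kinase activity predominates, read 2.17 and 1.46 in control and 0.41 and 0.19 with phorone. It fell without overlap by 1.52 on the log2 scale (SE 0.26, adjusted p = 0.009), and its 2 other probes were not well above background on any array. Pfkfb4 read 0.29 and 0.38 in control and 1.28 and 1.36 with phorone, and the pairs were tight and apart. It rose by 0.98 (SE 0.12, adjusted p = 0.004) and was called under each of the 16 alternatives, from 0.91 to 1.42. Pfkfb3 missed the call only under spike-in scaling (-1.08, adjusted p = 0.059). The Pfkfb4 to Pfkfb3 ratio within an array moved by 2.50 log2 units.

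Pfkfb2, the heart form, gave probes called in opposite directions. Its brightest probe read -0.31 and -0.54 in control and -1.12 and -0.98 with phorone, a fall of 0.62 (SE 0.14, adjusted p = 0.022). Another probe read -3.98 and -3.86 in control and -3.54 and -3.15 with phorone and was called higher by itself (0.57, adjusted p = 0.047), and the third gave -0.25 without a call. The mean of the 3 probes was not called, so the direction of Pfkfb2 rests on the probe chosen. The call of the brightest probe was lost without control replicate 1 (-0.51), phorone replicate 1 (-0.56) or phorone replicate 2 (-0.69), and under spike-in scaling (-0.19).

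Over all members, 53 probes were kept, of which 4 were called higher and 13 lower by themselves, against 45.8% of all kept gene probes called in either direction.

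**Figure D3:**
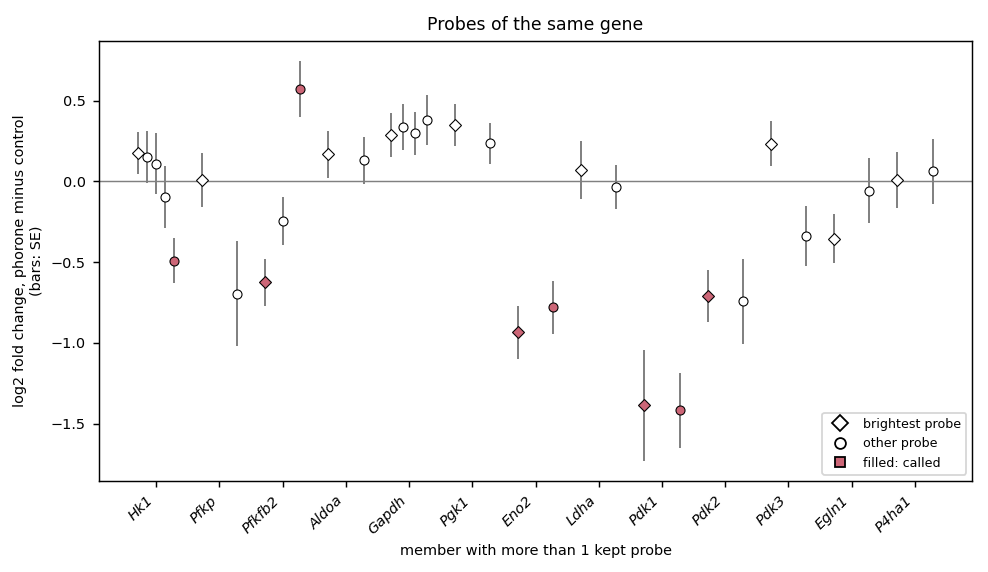
Points give the log2 fold change of each kept probe (bars, SE) for the 13 members with more than 1 kept probe, with diamonds for the brightest and filled points for probes called by themselves. The probes of Pfkfb2 were called on both sides of 0, while both probes of Pdk1 and of Eno2 lie below it.

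Pyruvate dehydrogenase kinases switch off pyruvate dehydrogenase and so divert pyruvate from the mitochondrion to lactate. Of the 4, 2 fell and 2 were not called. Pdk1, the HIF-induced member, read 2.50 and 1.63 in control and 0.95 and 0.41 with phorone. The groups did not overlap, but each was widely spread, and the log2 fold change was -1.39 (SE 0.34, adjusted p = 0.027). Its second probe fell alike, by 1.42. Pdk2, the widespread form, read 1.74 and 1.81 in control and 1.24 and 0.89 with phorone (-0.71, SE 0.16, adjusted p = 0.021). Pdk3 changed by 0.23 (SE 0.13, adjusted p = 0.209), with -0.34 on its other probe, and Pdk4, the fasting-induced form, by 0.25 (SE 0.19, adjusted p = 0.338). The Pdk1 call was lost without control replicate 1 (-0.95) or phorone replicate 2 (-1.11), the Pdk2 call without control replicate 1 (-0.74), control replicate 2 (-0.68) or phorone replicate 2 (-0.54), and both under spike-in scaling (-0.95 and -0.28).

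Among the oxygen-sensing genes, Epas1, which encodes HIF-2α, fell more than any other member. It read 3.57 and 3.30 in control and 0.96 and 0.91 with phorone, with a wide gap between the groups. The log2 fold change was -2.50 (SE 0.15, adjusted p = 0.000579), a 5.64-fold fall, and it was called under each of the 16 alternatives, from -2.63 to -2.06. A second, dim Epas1 probe was well above background on 1 control array and on no phorone array. Hif1a, which encodes HIF-1α, read 2.35 and 2.10 in control and 1.81 and 1.72 with phorone. The groups did not overlap, yet its change of -0.46 (SE 0.14, adjusted p = 0.052) just missed the threshold. It was called lower without control replicate 2 (-0.59), with quantile normalisation (-0.50), with normexp background correction (-0.46) and with a filter requiring all 4 arrays (-0.46), and was -0.03 under spike-in scaling. The Hif1a to Epas1 ratio within an array was -0.01 and 0.01 around the control mean in control and 2.06 and 2.01 with phorone. Egln1 (PHD2), the main prolyl hydroxylase acting on HIF-1α, changed by -0.35 (SE 0.15, adjusted p = 0.110). Egln3 (PHD3), itself a strong HIF target, read -6.89 and -6.90 in control and -6.88 and -6.49 with phorone and was not well above background on any array.

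Of the 7 further hypoxia targets, Adm (adrenomedullin, a vasodilator peptide) was the only one called. It read 2.39 and 1.85 in control and 0.77 and 0.90 with phorone. Both phorone values lay well below both control values, with a log2 fold change of -1.29 (SE 0.21, adjusted p = 0.008), and only spike-in scaling ended the call (-0.85, adjusted p = 0.148). Bnip3, a mitophagy receptor, changed by -0.05 (SE 0.22), Car9, a carbonic anhydrase that handles acid at the cell surface, by -0.40 (SE 0.19) and Ndrg1, a stress and differentiation gene, by 0.12 (SE 0.12). The collagen prolyl hydroxylase subunits P4ha1 and P4ha2 changed by 0.01 (SE 0.17) and -0.27 (SE 0.13). Ankrd37 changed by 0.33 (SE 0.30) and was called higher without control replicate 1 (0.74). Its control values, -0.02 and -0.84, lay on either side of one of the phorone values.

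The enzymes were set against the other hypoxia genes, meaning the HIF subunits, prolyl hydroxylases and further targets (11, of which 10 passed the filter). Among these 10, 0 rose (limma, and 0 at an unadjusted p below 0.05) and 2 fell, 20.0% called, against 31.2% of the 16 enzymes and 45.5% of all genes. The glucose carriers, PFKFB enzymes and pyruvate dehydrogenase kinases stand in neither list, so these counts leave them out. Of those left out, Slc2a1 and Pfkfb4 rose, and Pfkfb2, Pfkfb3, Pdk1 and Pdk2 fell. Medians were -0.31 for the other hypoxia genes, 0.04 for the enzymes and 0.08 for all genes. Within the other hypoxia genes, the 3 HIF subunits and prolyl hydroxylases that passed had a median of -0.46. The 7 further targets had a median of -0.05, near that of the enzymes. The difference between the medians of the enzymes and of all 10 other hypoxia genes was 0.35, with an SD between replicates of 0.18. It is a description with no test, and it mixes these 2 kinds of genes. Without phorone replicate 1 it was 0.18. With the mean of each gene's probes it was 0.20, and with normexp 0.23. The enzymes' own median changed sign with quantile normalisation (-0.02), with the mean of each gene's probes (-0.04) and without control replicate 2 (-0.07) or phorone replicate 1 (-0.05). Under spike-in scaling, which raised the median of all genes to 0.52, the medians were 0.47 for the enzymes and 0.12 for the other hypoxia genes.

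Ratios between isozymes of one step, picked after their values were seen and so given without a test, also shifted. Within an array, the log2 ratio of Pfkp to Pfkm moved by 0.75 and that of Pfkp to Pfkl by 0.79, and the Pdk3 to Pdk1 ratio by 1.62, each on the brightest probes. In the control arrays the Pfkp ratios spread around their mean with an SD of 0.26 and 0.41, and the Pdk ratio with an SD of 0.76 (n = 2). The control and phorone arrays did not overlap in these ratios. On its other probe Pfkp changed by -0.70, close to the -0.74 of Pfkm and the -0.78 of Pfkl, so the shifts of both Pfkp ratios rest on the brightest Pfkp probe.

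**Figure D4:**
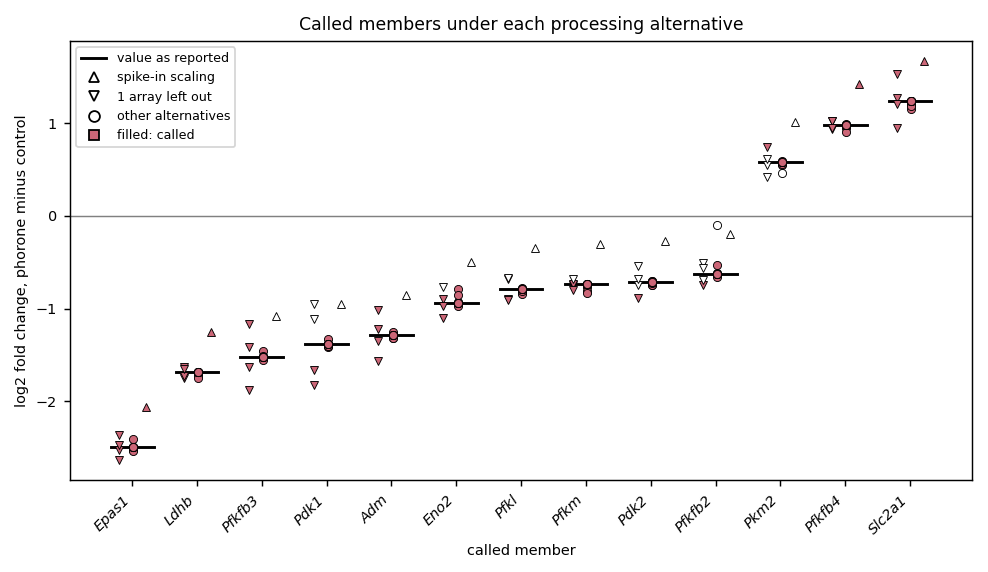
For each of the 13 called members, the log2 fold change as reported (line) is set beside its value under spike-in scaling (upward triangles), with 1 array left out (downward triangles) and under the other alternatives (circles), filled where called. Epas1, Ldhb, Pfkfb4 and Slc2a1 stay filled throughout, and spike-in scaling leaves 9 of the 13 open.

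Genes around the members were read from 5 lists. Their shares called are to be set beside the 45.5% of all 17031 genes, 24.3% higher and 21.3% lower. Of 17 other isozymes of glycolysis on the array, 8 passed the filter, 2 rose and 3 fell (62.5% called, median 0.00). Tigar, a phosphatase that lowers fructose 2,6-bisphosphate, rose from -1.77 and -1.59 to 0.18 and 0.24 (log2 fold change 1.89, SE 0.13, adjusted p = 0.000869). Hkdc1, a hexokinase-like gene not well above background in control, was at least 1.80-fold higher with phorone. Eno3, the muscle enolase, fell from 4.68 and 4.76 to 2.37 and 2.42 (-2.33, SE 0.12), and Pgam2, the muscle mutase, by 1.25. Slc2a4, the insulin-responsive carrier, was not well above background with phorone and was at least 1.48-fold lower. Hkdc1 and Slc2a4 passed the filter only through the group where each is bright, and among the 6 isozymes well above background on all 4 arrays 1 rose and 2 fell. With the array design's own gene names, 7 were tested, of which 1 rose and 3 fell. The muscle markers Des and Acta1 fell beside these muscle isozymes, and their part was not tested.

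Of 10 genes for the entry of pyruvate into mitochondria, 6 rose and 1 fell (70% called, median 0.46). Pdha1, the catalytic subunit of pyruvate dehydrogenase, rose by 1.06 and the complex's binding protein Pdhx by 0.91, though their other probes gave -0.40 and -0.19. Pdp1, the phosphatase that reactivates the complex and so opposes the kinases, fell by 0.84, with -1.58 on its other probe. Only 2 rose and 0 fell when either phorone array was left out or spike-in scaling was used or dim probes were not filtered out, and 3 rose without control replicate 2. With the array design's own gene names, 7 were tested, of which 5 rose and 0 fell.

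Of 9 measured genes of gluconeogenesis and glycogen, 3 rose and 5 fell (88.9% called, median -0.54). Gbe1, the glycogen branching enzyme, rose from 0.83 and 0.30 to 3.57 and 3.46 (2.95, SE 0.21, adjusted p = 0.00087), and Pgm2, a phosphopentomutase, by 0.72. Pck2, the mitochondrial phosphoenolpyruvate carboxykinase, fell from 3.73 and 4.03 to 2.35 and 2.31 (-1.55, SE 0.15), and Pygb, the brain glycogen phosphorylase, by 0.91. The counts were 1 higher and 5 lower without either control array, 2 and 2 without phorone replicate 1, and 1 and 1 without phorone replicate 2. With spike-in scaling they were 2 and 0, with no filter 1 and 2, and with noncoding probes added to the fit 1 and 5.

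Of 16 genes listed as other HIF components, 5 rose and 4 fell (56.2% called, median 0.05). Hif3a, a HIF subunit that can restrain the others, rose by 1.00, with 0.12 on its other probe, and the chaperone Hsp90ab1, which holds HIF-1α stable, rose by 0.93. Arnt2, a partner subunit, fell by 1.46. Creb3l1, which fell by 1.68, stands in this list by mistake, since it is an endoplasmic reticulum stress factor and no HIF component. Without phorone replicate 1 the list had 1 higher and 3 lower, without phorone replicate 2 it had 2 and 3, scaled on the spike-ins it had 4 and 1, and with no filter 2 and 3.

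Of 35 measured genes listed as further hypoxia targets, 3 rose and 14 fell (48.6% called, median -0.33). The share called was near the 45.5% of all genes. The transferrin receptor Tfrc rose by 1.82 (SE 0.14) and the protein-folding oxidase Ero1a by 1.79 (SE 0.13, with 0.20 on its other probe). The angiogenic factor Vegfa also rose, by 1.46 (SE 0.18) on its brightest probe. Its other kept probes disagreed, running from -0.98 to 1.61. Cxcl12, a chemokine of stromal cells, fell from 3.97 and 4.00 to 0.65 and 0.44 (-3.44, SE 0.13), and its other probe fell by 4.15. Selenbp1, a methanethiol oxidase, fell from 2.13 and 2.09 to -4.26 and -5.63, and was called lower, but it was well above background on 1 of the 2 phorone arrays only, so the size of the fall is not given. The 5 fibroblast markers that fell did so beside this list, and their part was not tested. Under spike-in scaling the list had 3 higher and 4 lower, with a median of 0.10.

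**Figure D5:**
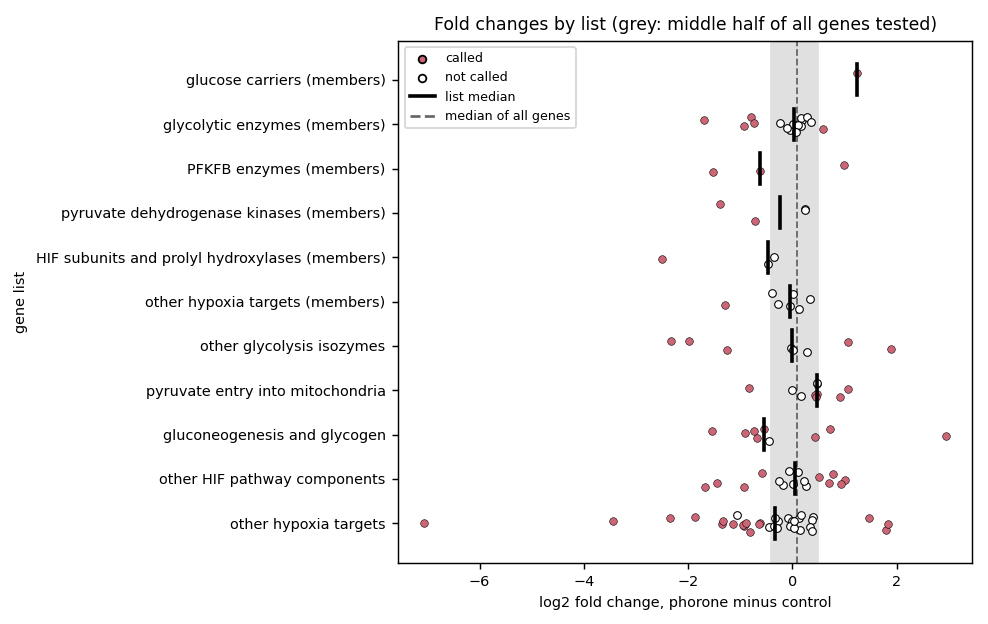
Each point is the log2 fold change of 1 gene, phorone minus control, in the member groups and in the 5 other lists (red, called; white, not called; bar, list median). The grey band is the interquartile range of all genes tested and the dashed line their median of 0.08. Red to the left of 0 are 14 of the 35 further hypoxia targets, against 21.3% of all genes called lower. The lists were chosen with earlier results of these data known, so this contrast is a description only.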

How the data were processed

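Total RNA of 4 samples was hybridised with Cy3 on one-colour arrays. The deposited intensity values are, per the file headers, background-subtracted and detrended signals of a mouse design whose positions refer to mm9, made with Agilent Feature Extraction 10.7.3.1 and not scaled between arrays. The authors' deposited log2 table matched these signals minus 1 number per array (SD at most 0.02), with column medians of -4.39, -4.35, -4.37 and -4.30.

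From the signals, log2 values were taken and each array's 75th percentile over all 61657 non-control spots was subtracted. Outlier spots were left out, and spots of the 61307 probes were averaged. Probes had to be well above background on both arrays of a group, control or phorone, and each gene was read from its brightest such probe. RefSeq accessions (GRCm38.p6) named 28136 of 40628 gene probes (69.3%), and members were found by the design's gene name (62 probes, 53 kept). Groups, taken from the titles, were compared over 17031 genes with limma 3.58.1 in R 4.3.3 (two-sided, 2 residual and 3.03 prior degrees of freedom), with Benjamini-Hochberg adjustment and a threshold of 0.05. Fold changes are phorone minus control. The fit was tested on simulated data. Where a gene was not well above background in a whole group, a bound was formed from the brighter group's mean and, on each dim array, the larger of the gene's value and the lowest signal well above background.

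The members and lists were chosen with earlier results of these data known. The naming rule asked for every member, array values for called members with a log2 change of at least 1 in size, for members dim in a group or with probes called in opposite directions, and for Gapdh, Ldha, Hif1a and Slc2a1, plus the 2 largest called changes each way per list. Array values of Pfkfb4, Pkm2, Pfkm, Pfkl, Eno2, Pdk2 and a few list genes, and the naming of Vegfa, were added after their values were seen. Same-numbered arrays did not deviate together (correlation -0.02), so numbers were not taken as pairs. Alternatives covered scaling, background correction, filter, probe choice, gene names, the authors' table, a replicate block and each array left out. The number of arrays limits the precision.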

Additional observations from a re-analysis of the deposited data

How the results depend on the processing

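Over 16 alternatives, 34 members gave 544 values, of which 508 kept their side of the threshold, 30 lost and 6 gained a call, and 0 reversed a call. With spike-in scaling 9 of the 13 called members lost the call, and without phorone replicate 2 it was 7. Median scaling and the authors' table lost 0 and quantile normalisation 1. Spike-in scaling left 1208 genes and 2 members lower, 0 enzymes higher, 1 enzyme lower and 1 other hypoxia gene lower; it changed both the level, by 0.43, and the SE, to 0.45 for every member. No enzyme was higher with quantile normalisation (0). With normexp, 4 other hypoxia genes were lower. With no filter on dim probes, 29314 genes were tested, 2305 rose, and 6 members were lower and 0 enzymes higher. With every probe tested by itself, 6168 probes rose and 4917 fell.

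With 1 array left out, where the lone array is assumed to vary like the other group, ranges were 2028 to 3750 genes higher and 2340 to 3609 lower, 2 to 3 members higher and 4 to 10 lower, 0 to 1 enzymes higher and 1 to 5 lower, 0 to 1 other hypoxia genes higher and 2 to 3 lower, and 0.18 to 0.41 for the difference of the medians. With the replicate block, which here is only a shared number, 3629 genes rose and 3369 fell, 3 members rose and 10 fell, and no member changed its call, while in the list of pyruvate entry into mitochondria 2 rose and 1 fell in place of 6 and 1. Of the 21 members not called, 18 were called under no alternative, the others being Hif1a, Egln1 (lower with normexp) and Ankrd37. With 2 arrays per group a change well under 2-fold could often not be told from the spread. Members not well above background (Slc2a3, Egln3, Aldoc) have no usable level here. Of these, Aldoc alone passed the filter without control replicate 1, through the single control array left. The upper end of the range of enzymes lower, given above, counts Aldoc and reflects that change of filter.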
